A study of Drosophila melanogaster with 2 samples.

Results

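The sites described here are the summits of the transcription factor sugarbabe (sug) that lay inside an annotated exon and away from every promoter. A summit, the point of highest signal within a peak, was kept when it fell in a 5 prime UTR, a 3 prime UTR, a coding exon or another exon and was more than 1 kb from every annotated transcription start site (TSS). Of the 9342 summits in the set that passed the authors' irreproducible discovery rate (IDR) threshold, 246 (2.63%, 95% Wilson interval 2.33 to 2.98%) met this rule. Binding was measured by ChIP-seq with an antibody against GFP in whole Drosophila melanogaster embryos of mixed sex, collected from 8 to 24 hours, from a transgenic line in which sug carries GFP at its C-terminus. The study had 1 group with 2 biological replicates and no other condition, and embryos without the tagged protein were not analysed here. Whole embryos mix all cell types, and the tagged protein comes from a transgene, so the sites are those of the fusion protein in an unknown mixture of cells. Each replicate had its own list of 30000 summits. The depth of the libraries is unknown, since the peak lists carry no read numbers. Every confidence interval printed covers counting error over summits only.

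Sugarbabe is a C2H2 zinc finger protein related to the GLI and GLIS families and is known for its induction by dietary sugar. Proteins of these families recognise stretches rich in cytosine. Most transcription factor sites in the fly lie at promoters and in introns, while coding exons and UTRs carry sequence that is already constrained by the protein or the transcript. The exonic sites split into 107 in 3 prime UTRs, 52 in coding exons, 47 in other exons and 40 in 5 prime UTRs. All 47 in other exons were in non-coding RNA genes, and the remaining 199 were in protein-coding genes. None of the 5 IDR summits inside sug itself was among them.

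A pair of short words recurred under these summits, the GATA-type word GATAAG, known from the binding sites of GATA factors, and a run of 6 cytosines, CCCCCC. Each of the following 30-base stretches shows the word nearest to a summit, for the strongest summits of each exon class that hold it within 100 bp, with 2 summits per class for GATAAG and 1 for CCCCCC. Sites on 1 chromosome arm were left out of this choice, and some of them are stronger than those shown, such as the GATAAG sites of sqa, M7BP, galla-1 and lncRNA:CR43650 and the CCCCCC site of asRNA:CR45270. Sequence is from the RefSeq copy of dm6 and reads 5′ to 3′ on the strand that spells the word, and capitals mark the word. All 12 words lie wholly in exonic sequence.
CG4839, 5 prime UTR, chr2L:10146181-10146210, plus strand, 89 bp from its summit: gcatttggagacGATAAGgccaaaaaacga
Atpalpha, 5 prime UTR, chr3R:20962219-20962248, minus strand, 21 bp from its summit: ccgtggcgactcGATAAGagtccgccctcc
CG7457, 3 prime UTR, chr3L:7721711-7721740, plus strand, 8 bp from its summit: atccattgataaGATAAGccctgtgggggc
Cyp4s3, 3 prime UTR, chrX:15113769-15113798, plus strand, 30 bp from its summit: aatgttgtaagtGATAAGaaatgggccccc
bif, coding exon, chrX:11683640-11683669, plus strand, on its summit: gcggcggcaggcGATAAGcctaagccccca
fry, coding exon, chr3L:9671472-9671501, plus strand, 93 bp from its summit: ccaggttcgcctGATAAGcatcttcctgga
lncRNA:CR45531, other exon, chrX:6861659-6861688, plus strand, 48 bp from its summit: tacgaagagtgtGATAAGgagagcgggagt
lncRNA:CR45048, other exon, chr3R:19909316-19909345, minus strand, 74 bp from its summit: ccactactcggcGATAAGgcagcagcgtcg
Cipc, 5 prime UTR, chr3R:26108600-26108629, minus strand, on its summit: gaatggagcggcCCCCCCgaaacacgcgca
Pak3, 3 prime UTR, chr3R:16447010-16447039, plus strand, 3 bp from its summit: gcgataaccccgCCCCCCtgccatcgatga
toc, coding exon, chr2L:3124895-3124924, minus strand, 5 bp from its summit: agaatcagctggCCCCCCagcagcgcccgc
lncRNA:CR44619, other exon, chrX:12754118-12754147, minus strand, 53 bp from its summit: tctacaccccccCCCCCCaacacacacaca

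Exonic sites were sparse in coding sequence and 3 prime UTRs and dense in 5 prime UTRs and non-coding exons. Counted per megabase of sequence lying more than 1 kb from every TSS, coding exons held 3.89 summits (95% Poisson interval 2.91 to 5.11), from 52 summits in 13.4 Mb. The 3 prime UTRs held 18.9 (15.5 to 22.8) in 5.67 Mb. The 5 prime UTRs held 66.9 (47.8 to 91.2) in 0.598 Mb, and other exons held 75.9 (55.8 to 101) in 0.619 Mb. Introns also more than 1 kb from every TSS, which gave 2459 summits, held 50.8 (48.8 to 52.8), and intergenic sequence held 17.3 (15.95 to 18.8). Distance beyond 1 kb was not matched. The median summit lay 2969 bp from a TSS in introns, 1820.5 bp in 5 prime UTRs and 1600 bp in other exons. Relative to introns, exonic sequence as a whole stood at 0.239, with coding exons at 0.0767, 3 prime UTRs at 0.372, 5 prime UTRs at 1.32 and other exons at 1.495. Neighbours in this order were not all separated. The intervals of 5 prime UTRs, other exons and, for 5 prime UTRs, introns overlapped, as did those of 3 prime UTRs and intergenic sequence. The 3.89 summits of coding exons were below all other classes.

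Each replicate on its own gave the same order of the 4 exon classes and introns. Among the 9342 highest summits of replicate 1, coding exons held 3.67 per Mb, 3 prime UTRs 20.6, 5 prime UTRs 60.2 and other exons 74.3, against 49.7 in introns and 16.1 in intergenic sequence. Among the 9342 highest of replicate 2 the values were 3.22, 18.5, 61.9 and 69.5 in the same classes, against 51.3 in introns and 19.4 in intergenic sequence, which here was above 3 prime UTRs. Both lists thus had the fewest summits per megabase in coding exons and, away from promoters, the most in non-coding exons. With only 2 replicates and summits that are not independent replicates, these differences between sequence classes were not tested.

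**Figure D1:**
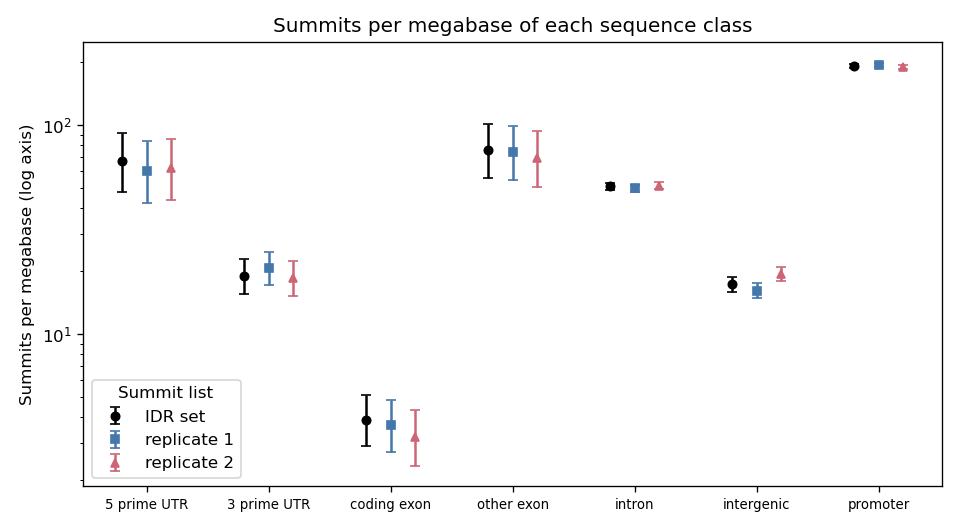
Summits per megabase of sequence (log axis) for the 4 exon classes, introns and intergenic sequence, all more than 1 kb from a TSS, and for promoters, in the IDR set (circles) and in the 9342 highest summits of replicate 1 (squares) and replicate 2 (triangles); bars are 95% Poisson intervals. Coding exons are lowest in all 3 lists, at 3.22 to 3.89, and promoters highest.

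Exonic sites were also a larger share of weak peaks. In the pooled list from which the IDR set was taken, the 20658 summits ranked below that set had 1054 exonic ones (5.10%, Wilson interval 4.81 to 5.41%), against 2.63% within it. Most of that difference was in coding exons (1.60% below the set against 0.557% within it) and 3 prime UTRs (2.51% against 1.15%), while 5 prime UTRs (0.441% against 0.428%) and other exons (0.547% against 0.503%) were near equal. Within the IDR set the exonic share was 2.09% in the fifth with the highest signal (Wilson interval 1.53 to 2.84%) and 3.16% in the fifth with the lowest (2.46 to 4.05%), and those intervals overlap. These shares are from ranks within 1 list, and the difference was not tested.

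Most exonic peaks were of modest strength. The signal score, which the authors assigned to each peak and which is comparable only within a list, ran from 226 to 5476 over the 246 sites with a median of 376, against a median of 424 for all IDR summits and 402 for the intronic ones. Of the 246, 106 (43.1%) were among the 4671 summits with the higher signal, which hold 50% of all summits by construction. Coding exon summits had the highest median signal of the 4 classes at 481 (quartiles 337 and 751), although they were the sparsest. The medians were 364 in 3 prime UTRs (quartiles 283 and 584), 375 in other exons (299 and 497) and 337 in 5 prime UTRs (268 and 664). The quartile ranges of all 4 classes overlapped one another and that of introns (291 to 645). Signals above 1000 were reached by 23 of the 246 exonic sites, against 1281 of all 9342 IDR summits and 298 of the 2459 intronic ones. Of the 23, 7 were in 3 prime UTRs, 6 in 5 prime UTRs, 6 in coding exons and 4 in other exons.

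**Figure D2:**
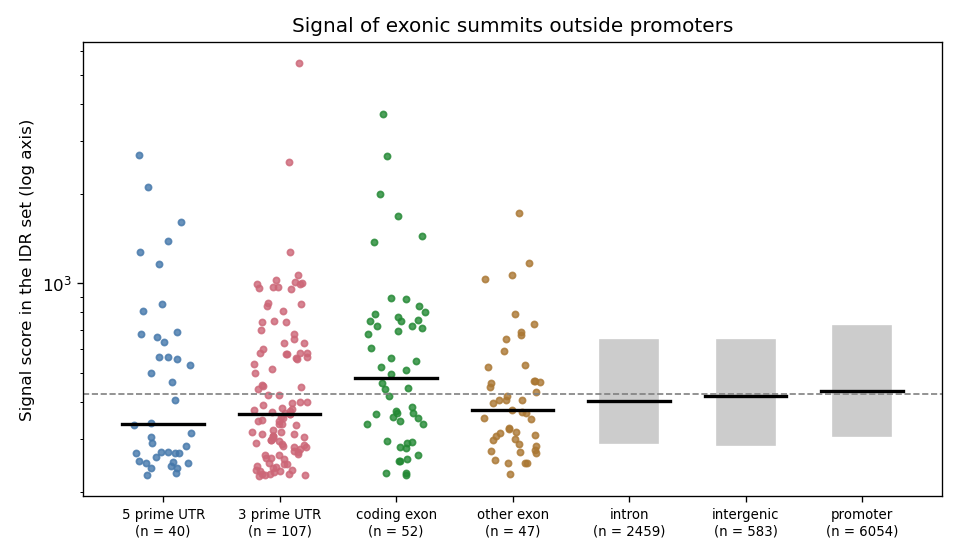
Signal score in the IDR set (log axis) of each exonic summit, by exon class, with black lines at the medians; grey boxes give the quartiles of intronic, intergenic and promoter summits, and the dashed line is the median of all IDR summits, 424. Coding exon summits have the highest median of the exon classes, 481, and the single highest exonic value, 5476, is in a 3 prime UTR.

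Nearly all exonic sites had a counterpart in the single replicates. A summit of the replicate list within 100 bp was called a partner. Of the 246 sites, 222 (90.2%, Wilson interval 85.9 to 93.4%) had a partner in both replicate lists, against 90.1% of all IDR summits. A partner was present for 236 in replicate 1, where the share over all summits was 95.2%, and for 232 in replicate 2, where it was 94.6%. None of the exonic sites lacked a partner in both lists, and only 24 of all 9342 IDR summits did. By class, 38 of 40 sites in 5 prime UTRs, 48 of 52 in coding exons, 95 of 107 in 3 prime UTRs and 41 of 47 in other exons had both partners. The authors derived the IDR set from these same lists, so these shares are no independent measure of agreement. The ranks of the partners in the 2 lists had a Spearman rho of 0.696 across the 222 sites and 0.689 across all summits with both partners, a description across peaks of shared libraries. The 24 exonic sites without both partners had signals of 227 to 532.

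**Figure D3:**
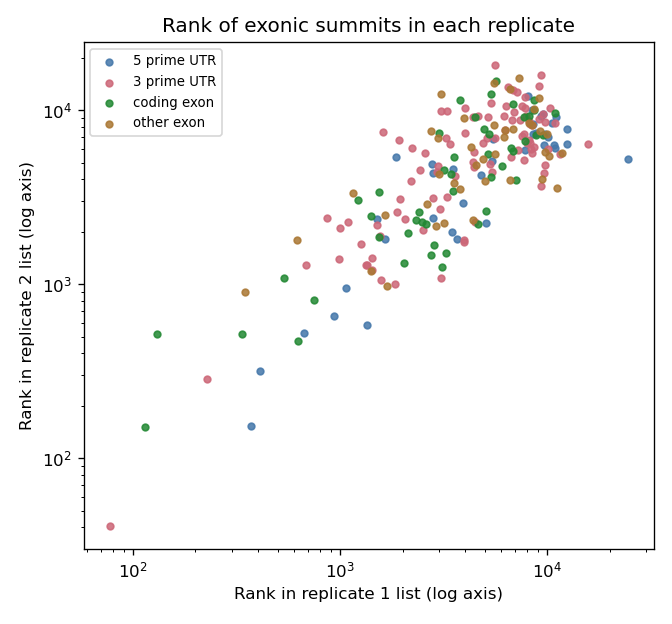
Rank of the partner in the replicate 1 list (x, log axis) against that in the replicate 2 list (y, log axis) for the 222 exonic summits with a partner in both, coloured by exon class. The strongest exonic site, in CG7457, is at ranks 77 and 41.

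The strongest sites in 3 prime UTRs were in CG7457, Pak3 and Larp4B. The highest of all 246 lay in the 3 prime UTR of CG7457 (FBgn0035812), in a peak from 7721414 to 7722032 on 3L, with its summit at 7721736, 1837 bp before the 3 prime end and 2386 bp from the nearest TSS, that of Mcad, a medium-chain acyl-CoA dehydrogenase gene. Its signal of 5476 ranked 61 in the IDR set, 77 in replicate 1 and 41 in replicate 2. It was the only IDR summit in CG7457, and it is the site whose GATAAG is printed above. Of the 2 transcripts of CG7457, 1 spans this summit, which also lay in the span of CG32373. Pak3 (FBgn0044826), a p21-activated kinase gene, had a peak from 16446720 to 16447346 on 3R with a signal of 2556 and ranks 228 and 286 in the replicates. The Pak3 summit lay 273 bp before the nearest 3 prime end of a transcript spanning it, while the annotated gene runs on to 16445007. Larp4B, which encodes a La-related RNA-binding protein, had 1275 at 3236520 on 3L, only 84 bp before its 3 prime end. The signal was 1065 for Tctp, the gene of the translationally controlled tumour protein, and 1030 for Glut4EF, named as a homologue of a glucose transporter enhancer factor. CG7872 followed with 1007. The summit in Glut4EF was 15701 bp from a TSS, the farthest of all exonic sites. It was exonic in 2 of the 8 transcripts spanning it and also lay in the span of CG46467, and Glut4EF held 15 IDR summits. Against these, the median site in a 3 prime UTR lay 369 bp from the 3 prime end, taken as the nearest end among the transcripts spanning it. Of the 107, 30 lay within 200 bp of that end, and the share of 3 prime UTR bases that near was not computed.

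The strongest sites in coding exons were in toc, sut1 and bif. In toc (FBgn0015600), the toucan gene, which encodes a microtubule-associated protein, the peak from 3124501 to 3125165 on 2L had a signal of 3700, ranking 119 in the IDR set and 114 and 151 in replicates 1 and 2. Its run of 6 cytosines, printed above, lay 5 bp from the summit. In sut1 (FBgn0028563), which encodes a sugar transporter, the peak from 8084015 to 8085102 on 2R had a signal of 2676 and ranks 130 and 518. That summit lay in an exon of 105 bp, 9 bp from its edge, and 29.6% of the peak was exonic. In bif, bifocal, which encodes an actin-associated protein, the summit at 11683656 on X had a signal of 1998 with ranks 334 and 515. It lay 599 bp from the nearest edge of an exon of 2537 bp, with GATAAG on the summit. The homeobox gene otp had 1682 at 20884604 on 2R, as the only IDR summit in the gene. The signals of nes, a lysophospholipid acyltransferase gene, and CG5346 were 1444 and 1372.

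The strongest sites in 5 prime UTRs were in gish, sqa and nub. The summit in gish (FBgn0250823), a casein kinase gene, at 16282298 on 3R had a signal of 2701 and ranks 369 and 154 in the replicates. It lay in an exon of 328 bp that 5 of the 15 transcripts spanning the position use. In sqa, a kinase gene named as an activator of spaghetti squash, the summit at 9746459 on 2R had 2107 and ranks 409 and 315. In nub, the POU-domain factor nubbin, the summit at 12593632 on 2L had 1605, was 6007 bp from a TSS and only 8 bp from the edge of its exon. CG11426 had 1387. Cipc, named for an interactor of the clock protein Clk, had 1277, with the run of 6 cytosines on the summit. The transcriptional repressor gene spen had 1163. In 5 prime UTRs the exon was part of only some of the transcripts that span it for 26 of 40 sites, so these positions are intronic in other transcripts. The same held for 8 of 107 sites in 3 prime UTRs, 3 of 52 in coding exons and 3 of 47 in other exons.

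The strongest sites in non-coding exons were in long non-coding RNA genes. In lncRNA:CR42839 the summit at 16005327 on 3R had a signal of 1717 and ranks 347 and 903 in the replicates. In lncRNA:CR43459 the summit at 10097932 on 3R had 1167, with ranks 617 and 1801, and the nearest TSS, 2090 bp away, was that of the microRNA gene mir-277. The signals of lncRNA:CR45531 and lncRNA:CR43650 were 1069 and 1031. They were 789 for lncRNA:CR45048, which overlaps RhoGAP92B, and 733 for asRNA:CR45270, which overlaps Dhit. Because the annotation has overlapping genes here, 15 of the 47 non-coding sites and 37 of all 246 also lay in the span of a further gene.

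Several genes held more than 1 exonic site. The 246 sites fell in 207 genes, 176 protein-coding and 31 non-coding, counting each site once by its first host, and 29 of these genes held 2 to 4 sites, 68 in all. The genes with 4 were baz (bazooka, the Par-3 polarity gene), lncRNA:CR43650 and lncRNA:CR43334. In baz all 4 were in the 5 prime UTR, between 17175955 and 17178864 on X, with signals of 255, 232, 852 and 262 in order of position, the last without a replicate 2 partner. Genes with 3 were spen, by, lncRNA:CR43126 and lncRNA:CR44603. In spen all 3 shared 1 peak interval, with signals of 1163, 314 and 633. In by, blistery, which encodes the adhesion protein tensin, the 3 prime UTR held signals of 749, 808 and 237. The genes with 2 were bif, Cipc, lncRNA:CR45531, Tctp, Ppa, puml, aay, raw, asRNA:CR45270, CG4839, asRNA:CR44018, lncRNA:CR44619, Mvl, lncRNA:CR44662, cnc, lncRNA:CR45911, Sdb, CG1888, CAH7, CG16989, CG3168 and CG9003. In bif the signals were 690 and 1998 in 2 coding exon peaks 1868 bp apart. Many pairs lay about 200 bp apart, such as those of Tctp, aay and raw, so they share sequence and are not separate observations. In all, the 246 summits came from 231 intervals, and 35 of them (14.2%) shared an interval with another IDR summit, against 16.6% of all IDR summits. By class the share was 29.8% in other exons (14 of 47), 13.5% in coding exons, 10.3% in 3 prime UTRs and 7.5% in 5 prime UTRs. It was 17.7% for intronic summits. The densities per megabase and their Poisson intervals count each such summit separately.

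Coding exon summits were near an exon edge more often than coding bases are, a difference that was not tested. Of the 52 coding exon summits 17 (32.7%) were within 50 bp of the edge of the merged exonic sequence, whereas 17.7% of all coding bases more than 1 kb from a TSS are that near. The share was 22.5% of the summits in 5 prime UTRs against 23.1% of such bases, 6.542% against 6.99% in 3 prime UTRs and 2.13% against 7.65% in other exons. Peaks lay wholly in exonic sequence for 13 of 52 sites in coding exons, 83 of 107 in 3 prime UTRs, 39 of 47 in other exons and 23 of 40 in 5 prime UTRs. The partner of an exonic summit had a median distance of 14 bp in replicate 1 and 15 bp in replicate 2. For the summit in sut1, 9 bp from its exon edge, the partners were 0 and 10 bp away in replicates 1 and 2.

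Genes with an exonic site were mostly bound at their promoter too. Of the 176 protein-coding hosts 129 (73.3%) carried a promoter summit in the IDR set, against 39.3% of all protein-coding genes. The hosts were longer, with a median of 6219 bp against 2166 bp for all protein-coding genes, and the part of gene length in this difference was not tested. The exonic site was the only IDR summit in the gene body for 80 of the 246. The nearest TSS belonged to the host for 151 sites, and the median distance to it was 1890 bp, against 2969 bp for the intronic summits. Of all sites, 129 of 246 lay between 1 and 2 kb. Just inside that limit were coding exon sites in cnc at 1007 bp with a signal of 420 and in raw at 1010 bp with 605, and a site in lncRNA:CR43126 at 1012 bp with 249. Just outside it were lncRNA:CR43334 at 998 bp with 287, eas at 995 bp with 648 and GlcT at 992 bp with 644. In all 1969 IDR summits lay in an exon, and 1723 of these (87.5%) were within 1 kb of a TSS.

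Of 7 lists of genes with known roles, 4 had a member with an exonic site. Over all annotated genes 1.16% held an exonic site away from promoters. Of 42 genes of sugar and lipid metabolism 3 (7.14%) did, namely Hex-A, Lsd-2 and Tret1-1. Hex-A, a hexokinase gene, had a signal of 298 in its 3 prime UTR, Lsd-2, a perilipin gene of lipid droplets, had 266 in its 3 prime UTR, and Tret1-1, a trehalose transporter gene, had 253 in a coding exon. All 3 were weak, with signals below the IDR median of 424. Gene length was not taken into account, and the shares of the lists were not tested. Of 26 genes of the ecdysone response and nuclear receptors only Hr4 had a site, at 444 in its 3 prime UTR and without a replicate 2 partner. Of 25 stress and detoxification genes only cnc, the Nrf2-type regulator, had sites, with signals of 273 in a 5 prime UTR and 420 in a coding exon. Of 32 cytoskeleton, adhesion and muscle genes only chic, the profilin gene, had one, at 272 in its 3 prime UTR and without a replicate 2 partner. That summit was on the last annotated base of chic, 33.9% of its peak was exonic, and its replicate 1 partner was 39 bp away. None of 22 insulin and TOR genes, 37 genes of the Wnt, Hedgehog, Notch, BMP and EGF pathways and 34 chromatin and transcription regulators had one.

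The GATA-type word was frequent under exonic summits. GATAAG, read on either strand, was within 100 bp of 81 of the 246 summits (32.9%, Wilson interval 27.4 to 39.0%). It was in 9.35% of the windows of the same length 500 bp to the left (6.31 to 13.6%) and in 13.4% of those to the right (9.71 to 18.2%). It was in 6.94% of the 82704 tiles of 201 bp over all exonic sequence more than 1 kb from a TSS, in 25.8% of all IDR summits and in 32.3% of the intronic ones. The share was thus 2.89 times the mean of the flanks, and near that of the intronic summits. By class, the word was found at 41 of 107 summits in 3 prime UTRs (38.3%), 19 of 52 in coding exons (36.5%), 12 of 40 in 5 prime UTRs and 9 of 47 in other exons (19.1%), with Wilson intervals that overlap. The nearest GATAAG lay wholly in exonic sequence for 77 of the 81 summits, and for 16 of the 19 in coding exons. Its median distance from the summit was 35 bp, and 32 of the 81 were within 30 bp.

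**Figure D4:**
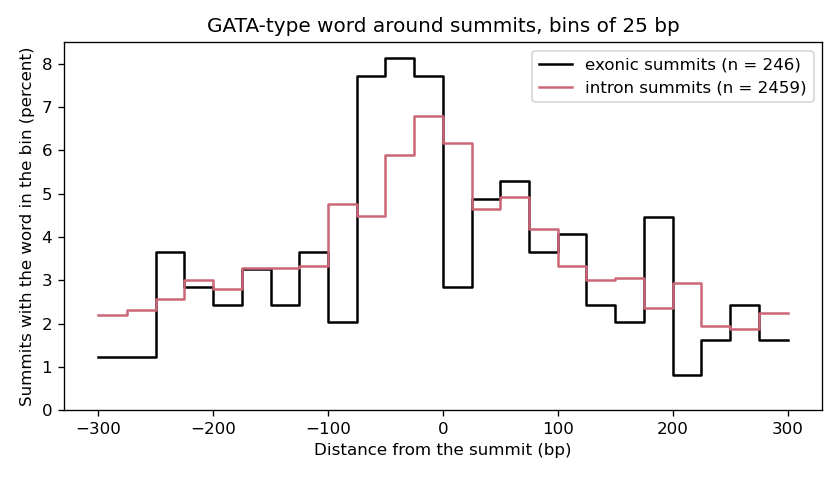
Share of summits with the GATA-type word in each bin of 25 bp (y, percent) by distance from the summit (x, bp), for the 246 exonic summits (black) and the 2459 intronic ones (red). The exonic curve is highest in the 3 bins from 75 bp before the summit to the summit, at 7.72 to 8.13%, where each bin holds about 20 summits.

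A run of 6 cytosines marked fewer sites. CCCCCC was within 100 bp of 26 of the 246 summits (10.6%, Wilson interval 7.32 to 15.04%), against 3.66% and 2.44% of the left and right flanks, 2.01% of the exonic tiles, 9.07% of all IDR summits and 12.6% of the intronic ones. It was at 12 of 107 summits in 3 prime UTRs, 6 of 52 in coding exons, 4 of 40 in 5 prime UTRs and 4 of 47 in other exons, and wholly exonic for 25 of the 26. Of the 106 exonic summits with the higher signal, 16 (15.1%) held it, and of the other 140, 10 (7.14%), with overlapping intervals. GATAAG was at 31.1% of the summits with the higher signal and at 34.3% of the others. Both words were held by 9 exonic summits, and either by 98, with no such counts made over all IDR summits. CCCCCCAC, a GLIS-type word that contains the run, was at 3 exonic summits (1.22%), against 1.34% of all IDR summits and 0.231% of the tiles. GACCACCC, known from GLI and ZIC proteins, was at 0.407% of exonic summits against 0.417% of all IDR summits and 0.415% of the tiles.

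The promoter words TATCGATA and GGTCACACT were found within 100 bp of no exonic summit. TATCGATA, the word of DREF, was at 0 of 246 summits, which allows a share of up to 1.54% (upper Wilson bound), against 3.76% of all IDR summits and 5.57% of promoter summits. GGTCACACT, known as core promoter motif 1, was likewise at 0 of 246, with the same bound, against 2.08% of all IDR summits. Intronic summits, also chosen away from promoters, held them at 0.325% and 0.0407%. Within 200 bp TATCGATA was at 1.22% of the exonic summits, and GGTCACACT was again at 0, with no share of other summits computed at that width. Among the other words, TGACTCA of AP-1 was at 12 summits (4.88%, Wilson interval 2.81 to 8.33%) against 1.63% and 1.22% of the flanks, 1.03% of the tiles and 2.49% of all IDR summits. CCACNCCC of Krüppel-like factors was at 15 (6.10%) against 2.03% and 0.813% of the flanks and 3.73% of all IDR summits, but in 4.09% of the tiles. CAGCTG and CACGTG, both E-boxes, were at 12.2% and 2.85% of exonic summits, against 10.8% and 3.19% of all IDR summits and 12.04% and 2.57% of the tiles. GAGAGAG of the GAGA factor was at 5.28% against 5.06% of all IDR summits, 4.88% and 2.44% of the flanks and 1.60% of the tiles. TGACNNNGC of cnc and Maf proteins was at 6.91% against 6.12% of all IDR summits and 7.15% of the tiles. Of the 246 exonic summits, 97 held none of the 12 words, a count that was not made for all IDR summits or the control windows.

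**Figure D5:**
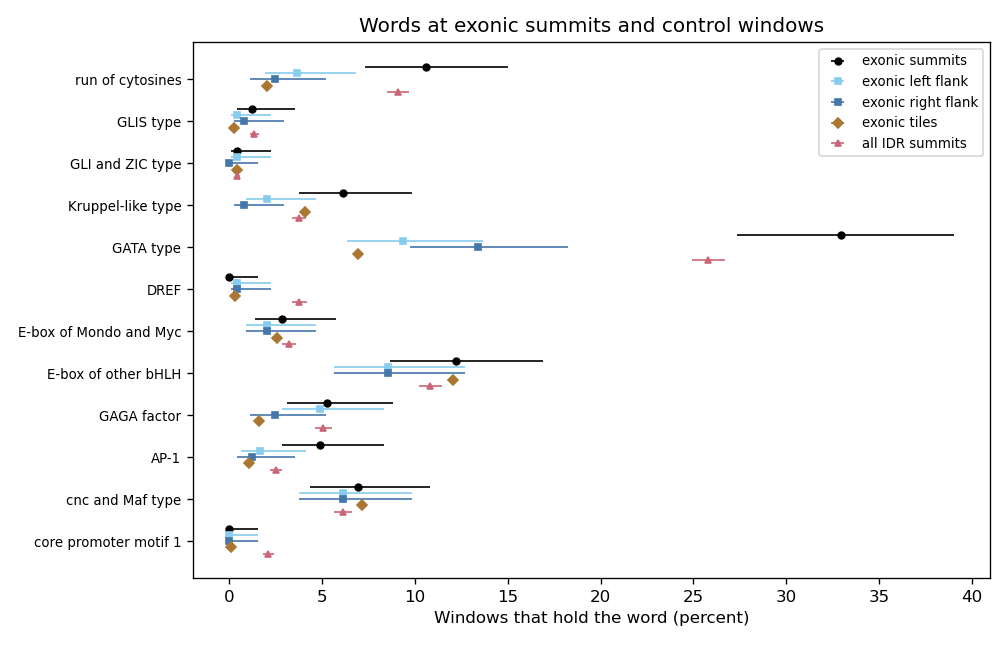
Share of 201 bp windows that hold each of the 12 words (x, percent) at exonic summits (black circles), their left and right flanks (blue squares), tiles of exonic sequence (brown diamonds) and all IDR summits (red triangles); bars are 95% Wilson intervals. The GATA-type word has the highest share at exonic summits, 32.9%, and the words of DREF and core promoter motif 1 are at 0.

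Base composition differed between these windows. The median G+C content of the 201 bp at exonic summits was 44.3%, against 39.6% and 40.8% in their left and right flanks and 50.2% in the exonic tiles. It was 49.8% at summits in coding exons, 43.0% in 5 prime UTRs, 42.3% in other exons and 41.8% in 3 prime UTRs. Its part in the word shares was not tested. By arm, the exonic share of IDR summits ran from 1.98% on 3L to 3.37% on X, with 2.14% on 2L, 2.79% on 2R and 2.86% on 3R, and was 3 of 41 on chromosome 4 (Wilson interval 2.52 to 19.4%).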

How the data were processed

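Per the text records deposited with the files, the assembly was dm6, and the authors called peaks on each replicate and on the pooled reads with a control and derived the IDR set from those lists. Aligner and caller: not given in the sources used here. For each peak the authors deposited a signal score, compared only within a list, a −log10 q, not used here, and a summit offset in bp. Fragments were 200 to 800 bp per the labels. Summits were placed on Ensembl release 115 annotation (BDGP6, 18164 genes, transposable elements left out) in the first that applied of promoter, 5 prime UTR, 3 prime UTR, coding exon and other exon, with stop codons counted as coding. Coordinates are 1-based. In 2 IDR rows, none of them exonic sites, the summit was set to the interval's end. In the replicate 1 list 21 mitochondrial summits fell in no class.

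Members, words and gene lists were chosen with earlier results of these data known. No test was made: there is 1 group, and summits are not replicates. Named genes are hosts of the 6 highest sites per class, hosts of 2 or more sites, up to 3 genes per list, and 3 sites on each side of the distance limit. The sequences add hosts of the strongest sites with the word, leaving out arm 2R, and the hosts named only in the closing observations were chosen after their values were seen. Placement, partner and word search were tested on simulated data. Alternatives were other TSS distances, lists, windows, controls and class orders. Computations used Python 3.11.15, numpy 2.4.6, pandas 2.3.3, scipy 1.17.1 and matplotlib 3.10.9.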

Additional observations from a re-analysis of the deposited data

How the results depend on the processing

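The number of exonic sites follows the distance limit: with more than 500 bp from a TSS it was 374 (4.003%), with more than 2 kb 117 (1.25%). Among the 4671 higher-signal summits it was 106 (2.27%), and with exons of protein-coding genes only the share was 2.13%. The replicate lists alone gave 228 to 248 sites (2.44 to 2.65%), a density of 0.220 to 0.247 of that in introns and GATAAG at 31.1 to 37.1%. The density and word values in these lists were added after seeing the data. The median signal percentile of the exonic sites was 41.9 in the IDR set. Ranked by their partners in 1 replicate list, among IDR summits with a partner there, it was 42.0 to 47.8. Those sites were still taken from the IDR set, so these percentiles do not come from 1 replicate alone. Partners in both lists were found for 78.05% within 50 bp, against 73.5% of all IDR summits. Within 250 bp they were found for 95.1%, against 96.2% of all. The exonic share was thus above that of all summits at 50 bp and below it at 250 bp. Of the higher-signal exonic sites 96.2% had both partners within 100 bp. The share over all higher-signal IDR summits was not computed. GATAAG was at 20.7% within 50 bp and at 48.4% within 200 bp of the summit, and CCCCCC was at 15.04% within 200 bp. Shares of control windows and of all IDR summits were not computed at these widths. Within 100 bp CCCCCC was at 15.1% of the higher-signal sites. The fold over exonic tiles within 100 bp was 4.74 for GATAAG and 5.26 for CCCCCC. Coding exons make up 13.4 of the 20.2 Mb of such exonic sequence but 52 of the 246 sites. The part of this difference in the folds was not tested. With coding exons placed first, the counts were 39 in 5 prime UTRs, 107 in 3 prime UTRs, 53 in coding exons and 47 in other exons. The density in 3 prime UTRs was above that of intergenic sequence in the IDR set (18.9 against 17.3 per Mb) and below it in replicate 2 (18.5 against 19.4). Depth is unknown, so what weaker binding in exons was missed cannot be given. No paired analysis was possible because there is only 1 group.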

Other observations

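The following hosts of exonic sites were picked after their values were seen, with no list behind them, so they show no share of any gene group. They are Mal-A4, a maltase gene, with a signal of 717 in a coding exon, Pepck2, a phosphoenolpyruvate carboxykinase gene, with 353 in the 3 prime UTR, and SLC5A11, a gene of the sodium-coupled sugar transporter family, with 280 in a coding exon. Mpc1, the mitochondrial pyruvate carrier gene, had 230 in its 3 prime UTR. All 4 had partners in both replicates, as did 90.1% of all IDR summits. GATAAG lay 63 bp from the summit in Mal-A4 and 24 bp in Pepck2.

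Some related genes had exonic sites together, again noticed after the fact. Fer1HCH and Fer2LCH, the neighbouring genes of both ferritin chains, each had a site in the 3 prime UTR, with signals of 317 and 312 and GATAAG at 0 and 40 bp. The summit in Fer2LCH was 14 bp before the 3 prime end, and its GATAAG was not wholly in exonic sequence. The juvenile hormone receptor genes Met and gce had 421 in a 3 prime UTR and 244 in a 5 prime UTR, each with CCCCCC within 53 bp.

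A run of 5 cytosines, counted after the printed sequences were seen, was at 70 of the 246 exonic summits (28.5%, Wilson interval 23.2 to 34.4%), against 10.98% and 13.4% of the left and right flanks, 10.03% of exonic tiles and 23.9% of all IDR summits. Among the higher-signal exonic sites the run of 5 was at 40.6%. Its share over all higher-signal IDR summits was not computed, so the 40.6% has no matched background.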
